A study of Mus musculus with 4 samples.

Results

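The 10 genes studied here belong to dendritic cell biology and were followed over 4 expression arrays: *Flt3*, *Csf2ra* and *Csf2rb*, which encode growth factor receptors, the transcription factor genes *Batf3* and *Zbtb46*, the surface marker genes *Itgax*, *Clec9a* and *Xcr1*, and *Il15* and *Cd86*, whose products act on lymphocytes. These 10 members were chosen from earlier results of the same arrays, by the intensity ratio of colonized to germ-free (GF) Peyer's patch and by their role in dendritic cells, so that ratio is given below as a description only. Every probe set annotated to one of the symbols was taken. The annotation gave 15 probe sets for 9 members, beside 1 probe set shared by *Csf2rb* and *Csf2rb2*, and listed none for *Clec9a*, so 9 of the 18193 genes named on the array are described.

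The mice were C57BL/6 and were kept in vinyl isolators. One group stayed GF, and the other were GF mice given 100000000 bacteria of *Lactobacillus* strain NK318.1 and sampled 2 weeks later, so that they carried this single bacterium. From each group, RNA of Peyer's patch (PP) cells and of intestinal epithelial cells (IEC) was hybridized, which gave the arrays GF PP, NK318.1 PP, GF IEC and NK318.1 IEC. The study describes its array samples as pooled (n = 6), and each group has 1 array, so no spread between mice was measured and nothing below was tested. The value of a probe set is its intensity, which has no unit, and each difference is the log2 of one array's intensity over that of another. Intensities under a floor of 15.5 were raised to it for ratios, a ratio with 1 array under the floor is a lower bound of the difference, and a gene with both arrays under it has no ratio.

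The 4 arrays had median intensities of 23.0 to 23.3. The leukocyte gene *Ptprc* had 5152 and 5235 on the GF and NK318.1 PP arrays against 270.9 and 23.1 on the IEC arrays, and the epithelial gene *Epcam* had 75.9 and 57.0 against 3926 and 3623, as the tissue labels say. Sex-linked genes split the arrays by colonization. *Xist* had 21.7 and 46.7 in the GF arrays and 4586 and 4889 in the NK318.1 arrays, while the Y-linked *Eif2s3y* had 300.1 and 146.7 against values under the floor, *Kdm5d* 165.1 and 90.6 against 2.27 and 5.46, and *Uty* 38.1 and 39.9 against 3.01 and 3.85. Colonization and the sex of the pools cannot be told apart for any gene below.

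Dendritic cells take up antigen and present it to T cells, and in the Peyer's patch they lie under the epithelium that samples the gut lumen. Their growth from bone marrow precursors depends on the ligand of FLT3, and the receptor for GM-CSF, made of a ligand-specific α chain (*Csf2ra*) and a β chain shared with other cytokine receptors (*Csf2rb*), adds survival and differentiation signals. *Batf3* is needed for type 1 conventional dendritic cells, which carry CLEC9A and XCR1 and present antigen to CD8 T cells, and *Zbtb46* is expressed in conventional dendritic cells and their committed precursors. None of the receptor genes, nor *Itgax*, is specific to dendritic cells, since macrophages, granulocytes or lymphocytes also use them. In RNA of a whole tissue, fewer cells of a type and less RNA per cell cannot be told apart.

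RefSeq promoter sequence (assembly GRCm38.p6, the 250 bases before the start site) was at hand for 7 of the 10 members: *Batf3*, *Clec9a*, *Csf2ra*, *Flt3*, *Itgax*, *Xcr1* and *Zbtb46*. They were searched on both strands for 3 short motifs, the core of the interferon-stimulated response element (GAAANNGAAA), the STAT-binding GAS motif (TTCNNNGAA) and the core of the site of PU.1, a myeloid transcription factor (GAGGAA). Printed here are 2 growth factor receptor genes with similar PP ratios and *Batf3*, whose ratios had opposite signs in the 2 tissues. They are written 5′ to 3′ on the strand of the gene, with motif letters in capitals.

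Flt3, chr5:147400490-147400739, minus strand: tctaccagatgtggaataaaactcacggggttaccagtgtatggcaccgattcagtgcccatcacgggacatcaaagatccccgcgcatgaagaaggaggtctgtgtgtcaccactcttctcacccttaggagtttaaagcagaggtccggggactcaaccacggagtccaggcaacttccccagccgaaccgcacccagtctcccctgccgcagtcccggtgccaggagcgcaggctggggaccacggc
Csf2ra, chr19:61228419-61228668, minus strand: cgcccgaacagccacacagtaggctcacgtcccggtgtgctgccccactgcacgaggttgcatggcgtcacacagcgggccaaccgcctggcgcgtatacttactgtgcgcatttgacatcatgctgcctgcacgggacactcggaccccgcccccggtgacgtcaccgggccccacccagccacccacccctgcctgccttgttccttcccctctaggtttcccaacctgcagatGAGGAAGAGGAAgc
Batf3, chr1:191098164-191098413, plus strand: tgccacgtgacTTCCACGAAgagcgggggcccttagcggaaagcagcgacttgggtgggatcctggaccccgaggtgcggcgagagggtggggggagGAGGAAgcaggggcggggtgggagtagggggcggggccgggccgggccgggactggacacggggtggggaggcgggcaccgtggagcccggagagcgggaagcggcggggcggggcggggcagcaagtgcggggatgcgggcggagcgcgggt

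The interferon-response core was in 0 of the 7 member promoters, against 2.98% of 32851 promoters searched the same way. The GAS motif was in 1 of 7, at 239 bases before the *Batf3* start site, against 7.02% of all promoters. The PU.1 core was in 2 of 7, once in *Batf3* at 153 bases and in *Csf2ra* at 14 and 8 bases before the start site, against 23.3% of all. The *Batf3* matches lay apart from each other, and the *Csf2ra* pair stood side by side. The *Flt3* window held none of the 3 motifs. A match is a run of letters and no measured site.

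*Flt3* encodes the receptor tyrosine kinase that FLT3 ligand activates. Its single probe set had an intensity of 209.9 in GF PP, 98.9 in NK318.1 PP, 38.5 in GF IEC and 38.3 in NK318.1 IEC. The NK318.1 PP intensity was 2.12-fold below that of GF PP (log2 ratio −1.09), whereas the IEC arrays lay within 1.01-fold of each other (log2 ratio −0.01). Both PP arrays stood above both IEC arrays.

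*Csf2ra* has 2 probe sets, and the brighter one represents the gene. It read 123.0 in GF PP, 55.3 in NK318.1 PP, 39.9 in GF IEC and 32.4 in NK318.1 IEC. The NK318.1 array was the lower one in both tissues, by 2.23-fold in PP (log2 ratio −1.15) and by 1.23-fold in IEC (−0.30). The other probe set read 16.7, 21.3, 18.6 and 21.9 in the same order, close to the floor on all 4 arrays, with log2 ratios of 0.35 in PP and 0.24 in IEC. The 2 probe sets therefore disagree in direction in both tissues, and the α chain result rests on the brighter one.

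*Csf2rb* has 2 probe sets of its own. The representative probe set read 671 in GF PP, 312 in NK318.1 PP, 10.4 in GF IEC and 16.5 in NK318.1 IEC, and the other one 206.8, 79.8, 10.4 and 13.7. On both probe sets the NK318.1 PP intensity was below that of GF PP, by 2.15-fold (log2 ratio −1.10) and 2.59-fold (−1.37), and the IEC arrays were near or under the floor. A probe set that the annotation assigns to *Csf2rb* and *Csf2rb2* together read 40.1, 30.5, 35.9 and 47.5, with log2 ratios of −0.40 in PP and 0.40 in IEC. *Csf2rb2* itself, the mouse β chain that serves IL-3 alone, read 171.6 in GF PP and 112.7 in NK318.1 PP (log2 ratio −0.61), and 14.6 and 7.86 in IEC, under the floor. *Csf2rb* and *Csf2rb2* are near-identical copies, so signal on their probe sets may be shared.

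*Batf3* read 106.1 in GF PP, 63.6 in NK318.1 PP, 19.1 in GF IEC and 35.4 in NK318.1 IEC. The order of the colonization groups was opposite in the 2 tissues, with NK318.1 1.67-fold lower in PP (log2 ratio −0.74) and 1.86-fold higher in IEC (0.89). No member had a higher IEC ratio, and 96.5% of the genes measured in IEC lay below it. The *Batf3* value in GF IEC was near the floor.

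*Zbtb46* was near the floor throughout. Its representative probe set read 19.8, 16.2, 19.4 and 19.8 in GF PP, NK318.1 PP, GF IEC and NK318.1 IEC, with log2 ratios of −0.29 in PP and 0.03 in IEC. A second one read 33.5 and 35.9 in PP, a log2 ratio of 0.10, and 4.80 and 7.04 in IEC. The third passed the floor only in GF PP, at 16.5, and read 10.4, 8.00 and 5.64 on the other arrays, and the fourth was between 4.58 and 6.38 on every array. The probe sets of this gene give no common direction in PP.

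*Itgax* encodes CD11c, the integrin chain most used to recognise mouse dendritic cells. It read 93.9 in GF PP, 65.2 in NK318.1 PP, 28.6 in GF IEC and 20.2 in NK318.1 IEC. The NK318.1 intensity was lower by a similar factor in both tissues, 1.44-fold in PP (log2 ratio −0.53) and 1.42-fold in IEC (−0.50).

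*Xcr1*, the receptor for the chemokine XCL1, read 17.5, 14.0, 10.9 and 8.11 in GF PP, NK318.1 PP, GF IEC and NK318.1 IEC. Only the GF PP array passed the floor, so the gene was at least 1.13-fold lower in NK318.1 PP and had no ratio in IEC. *Clec9a* was unlisted, and *Xcr1* and *Zbtb46*, at or near the floor, gave little signal. *Batf3*, the other transcription factor gene of the set, was well above the floor in PP, at 106.1 in GF and 63.6 in NK318.1. The members at least 2-fold lower in NK318.1 PP were the receptor genes *Flt3*, *Csf2ra* and *Csf2rb* and the cytokine gene *Il15*. None of these is specific to dendritic cells. The set is therefore described by its genes and not as a measure of a cell type.

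*Il15* encodes a cytokine that is presented to T and NK cells on its receptor α chain, and both epithelial and myeloid cells make it. It read 48.3 in GF PP, 23.9 in NK318.1 PP, 77.8 in GF IEC and 68.1 in NK318.1 IEC. The PP ratio was the one nearest to the 2-fold limit among members past it, 2.02-fold lower in NK318.1 (log2 ratio −1.01), and the next member outside the limit was *Batf3*. In IEC the NK318.1 intensity was 1.14-fold lower (−0.19).

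*Cd86* encodes the costimulatory ligand of CD28 and CTLA4. Its representative probe set read 205.7 in GF PP, 295.8 in NK318.1 PP, 11.8 in GF IEC and 18.4 in NK318.1 IEC, and the other one 150.9, 158.8, 5.30 and 4.93. Both PP log2 ratios were above 0, at 0.52 and 0.07, which made *Cd86* the single member with a higher intensity in NK318.1 PP. In IEC it was at least 1.19-fold higher in NK318.1 on the representative probe set, whose GF IEC value was under the floor.

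**Figure D1:**
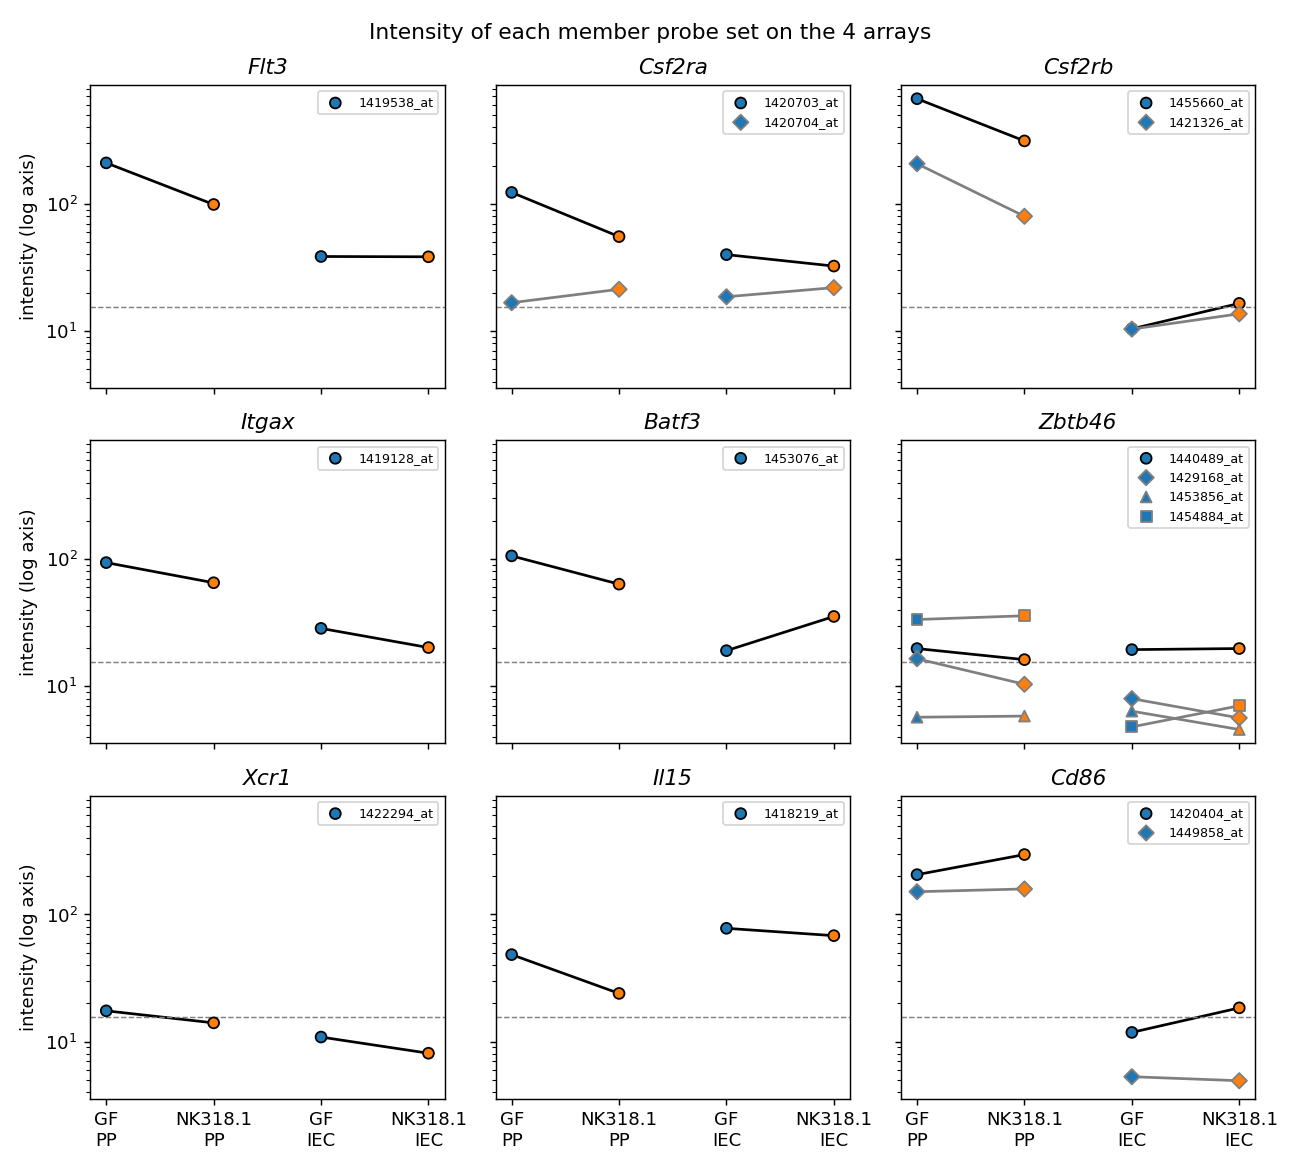
Intensity (log axis, no unit) of each member probe set on the GF and NK318.1 arrays of PP and IEC, 1 panel per gene and 1 array per point, with the representative probe set in black lines, the others in grey and the floor of 15.5 dashed. *Flt3*, *Csf2ra*, *Csf2rb*, *Batf3*, *Itgax* and *Il15* slope down from GF to NK318.1 in PP, *Cd86* slopes up, and *Xcr1* and most *Zbtb46* points lie near or under the floor, with *Xcr1* above it only in GF PP.

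Counted together, 4 of the 9 members measured in PP were at least 2-fold lower in NK318.1 (*Flt3*, *Csf2ra*, *Csf2rb* and *Il15*) and 0 were at least 2-fold higher. Among all 12736 genes measured in PP the same limits were passed by 0.573% lower and 0.149% higher. The median log2 ratio was −0.74 over the members and −0.03 over all genes, and 8 of 9 members lay below 0 against 57.2% of all genes. Since the members were chosen by this ratio, these counts describe the choice. From the lowest ratio upwards, *Csf2ra* was at rank 42, *Csf2rb* at 48, *Flt3* at 50, *Il15* at 69, *Batf3* at 165, *Itgax* at 450, *Zbtb46* at 1505 and *Xcr1* at 3063, and *Cd86* was at 12590, near the other end. The first 3, both chains of the GM-CSF receptor and the FLT3 ligand receptor, had almost equal ratios.

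**Figure D2:**
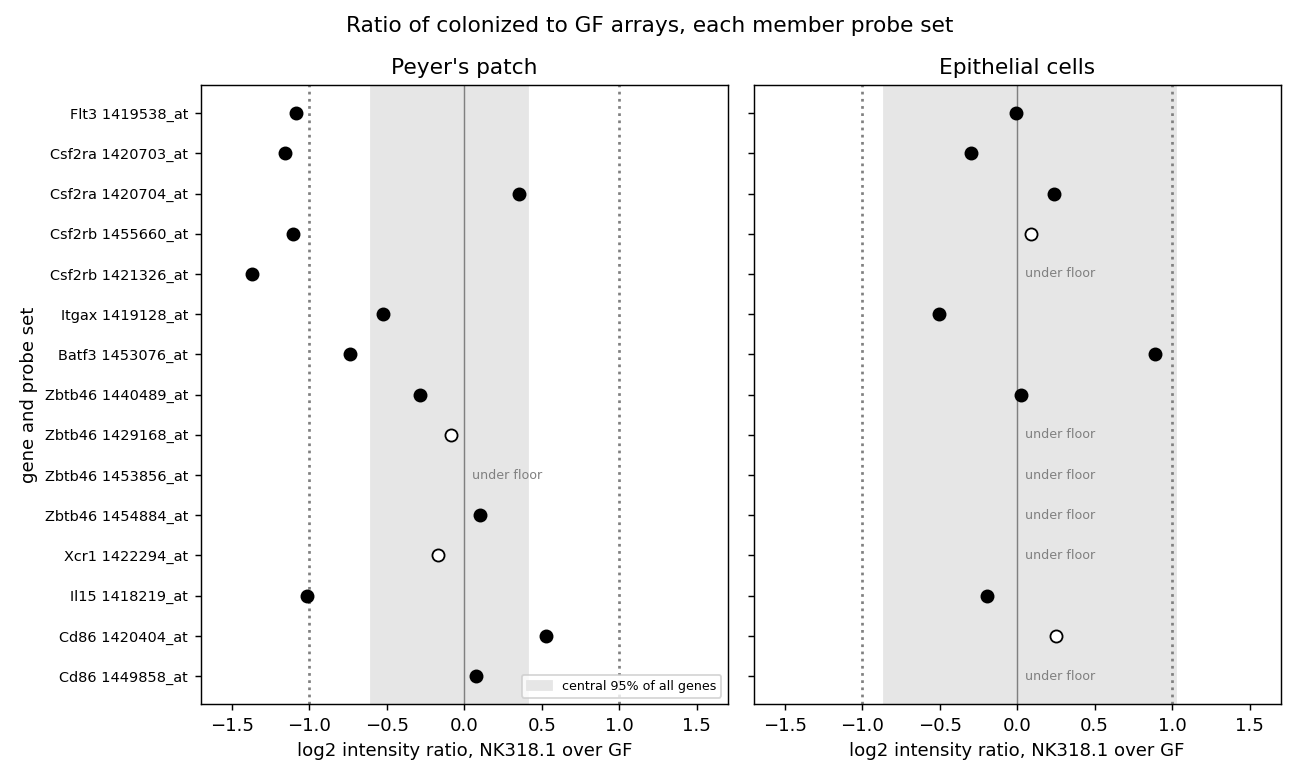
Log2 intensity ratio of NK318.1 over GF for each member probe set in PP (left) and IEC (right), with open circles for lower bounds, dotted lines at 2-fold and the central 95% of all genes shaded (−0.60 to 0.41 in PP, −0.86 to 1.03 in IEC). In PP, *Flt3*, *Il15*, both *Csf2rb* probe sets and 1 of 2 *Csf2ra* probe sets lie left of the lower 2-fold line, and in IEC every plotted probe set lies inside the shaded range.

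In IEC, whose ratio was not the stated basis of the choice, 0 of 8 measured members were at least 2-fold higher and 0 at least 2-fold lower in NK318.1. Among all 13874 genes measured there, 2.63% were higher and 1.54% lower by that limit. The member median was 0.01 and that of all genes 0.02, with 4 of 8 members and 47.6% of all genes below 0. *Batf3* was the highest member and *Itgax* the lowest, at a ratio that 9.39% of the genes lay below. The members stood at the low end in PP and about the middle in IEC. Their low place in PP describes the choice, so this contrast is no finding about the tissues, and it was not tested. Colonized IEC also had a higher 3′ to 5′ ratio of the β-actin probe sets, which grows with RNA breakage, at 4.10 against 2.73 in GF IEC, while PP had 1.74 and 1.60. Its part in the IEC ratios was not tested.

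**Figure D3:**
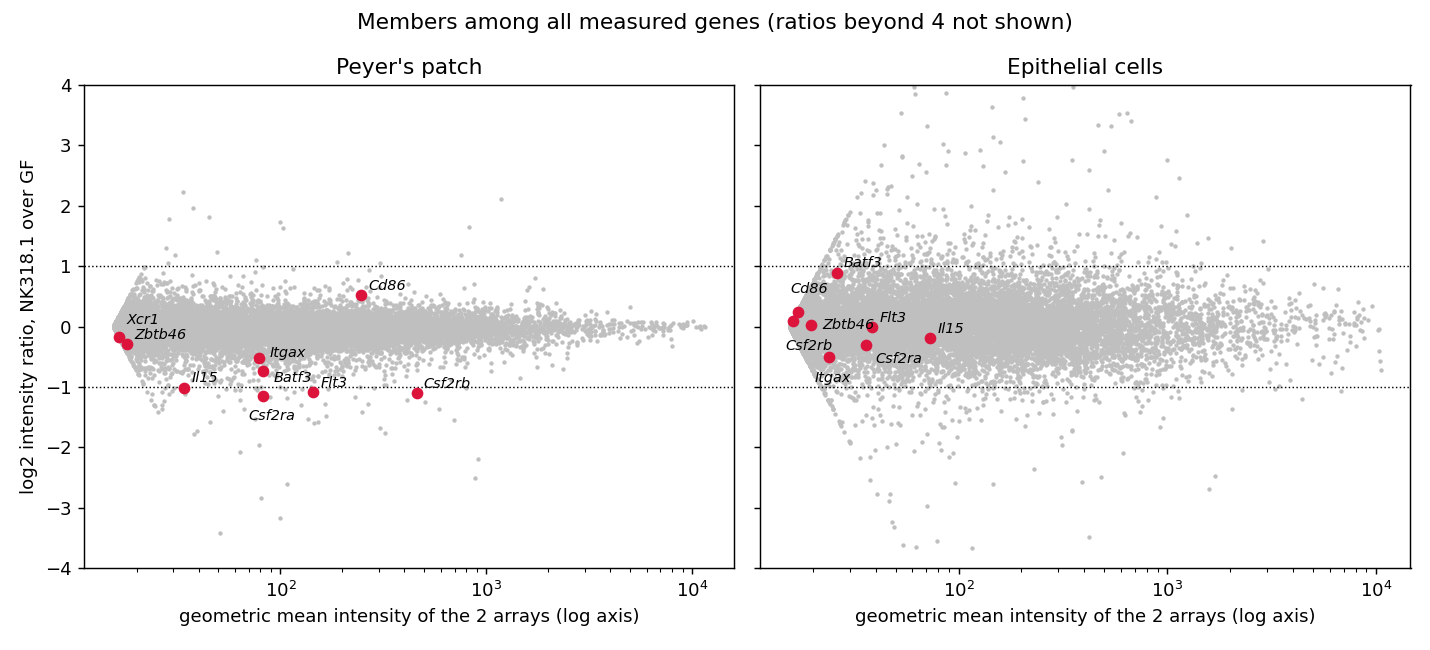
Log2 intensity ratio of NK318.1 over GF against the geometric mean intensity of the 2 arrays (log axis, values under the floor raised to it), for all genes measured in PP (left) and IEC (right) in grey and the members in red, with dotted lines at 2-fold. *Flt3*, *Csf2ra* and *Csf2rb* lie on the lower edge of the PP cloud over a range of mean intensities, and the members lie within the wider IEC cloud.

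The spread of log2 ratios over all genes in PP narrowed from low to high intensity. For genes with a mean intensity under 50, the middle 95% lay between −0.66 and 0.49, for those between 50 and 200 it lay between −0.65 and 0.38, and above 200 between −0.50 and 0.32. *Csf2rb*, in the brightest of these classes, had a log2 ratio of −1.10, where 0.341% of genes were at least 2-fold lower. *Flt3* and *Csf2ra* were in the middle class, with 0.797%, and *Il15* in the dimmest, with 0.566%. Since the members were chosen by their PP ratio, their place among these shares describes the choice.

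Between tissues, 6 of 9 members were at least 2-fold brighter in GF PP than in GF IEC and 0 at least 2-fold dimmer, beside 18.5% and 16.0% of all 14036 genes measured. *Csf2rb* stood at least 43.3-fold and *Cd86* at least 13.3-fold higher in GF PP, *Batf3* 5.56-fold, *Flt3* 5.45-fold, *Itgax* 3.29-fold and *Csf2ra* 3.08-fold. *Il15* was 1.61-fold lower in PP, and *Zbtb46* was within 1.02-fold of equal on its representative probe set. The *Zbtb46* probe set that read 33.5 in GF PP was at least 2.16-fold higher in PP in GF and at least 2.31-fold in NK318.1, so the probe sets of this gene disagree between tissues too. On the NK318.1 arrays 4 of 8 members were at least 2-fold brighter in PP, against 16.8% of genes, and 1 was dimmer, against 18.4%. *Csf2rb* was then 18.9-fold, *Cd86* 16.0-fold, *Itgax* 3.23-fold and *Flt3* 2.58-fold higher in PP, *Batf3* was 1.79-fold higher and *Csf2ra* higher by a log2 ratio of 0.77, and *Il15* was 2.85-fold lower. Each of these tissue ratios uses a PP array that the colonization ratio also uses, so they hold no separate evidence on colonization. Among the members above the floor on all 4 arrays, *Itgax* had the most similar tissue ratio in both colonization groups, with log2 ratios of 1.72 and 1.69, and *Batf3* the least similar, with 2.48 and 0.84.

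**Figure D4:**
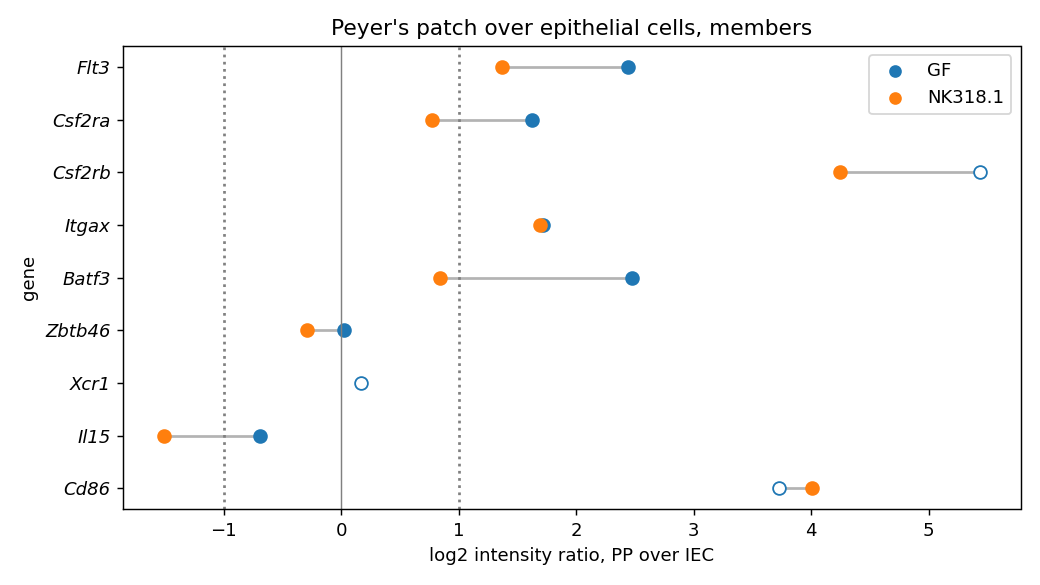
Log2 intensity ratio of PP over IEC for each member in GF (blue) and NK318.1 (orange) mice, 1 array per tissue and group, with open circles for lower bounds and dotted lines at 2-fold. The orange point lies left of the blue one for *Flt3*, *Csf2ra*, *Csf2rb*, *Batf3*, *Zbtb46* and *Il15* and right of it for *Cd86*, the points of *Itgax* nearly coincide, and *Xcr1* has no NK318.1 ratio.

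Ligands and signalling partners of the receptors were read from a list of 25 related genes, of which 20 were measured in PP. In PP 0 of 20 were at least 2-fold higher or lower in NK318.1, 13 lay below 0, and their median log2 ratio was −0.19. The lowest were *Socs2*, a STAT5-induced inhibitor of cytokine signalling, at 294.7 in GF and 184.6 in NK318.1 (−0.67), and *Csf2rb2*. The highest were *Kitl*, the ligand of KIT, at 40.1 and 56.8 (0.50), and *Il5ra* at 20.1 and 22.2 (0.14). *Csf2*, which encodes GM-CSF, was under the floor on both PP arrays, at 9.50 and 12.1, as were *Il3* and *Il5*, whose products signal through the same β chain. *Flt3l* was named only by a probe set shared with another gene and has no value here. In IEC, 0 of 19 measured genes of this list passed 2-fold either way, with a median of 0.01.

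Partners of IL-15 and CD86 gave a similar range. In PP 0 of 16 measured genes passed the 2-fold limit, 10 lay below 0, and the median was −0.25. *Il15ra*, the chain that presents IL-15, read 81.6 in GF PP and 56.0 in NK318.1 PP (−0.54) and a second probe set gave −0.67, so it lay on the same side of 0 as *Il15*. The lowest were *Il7*, at least 1.60-fold lower, and *Cd274*, which encodes PD-L1, at 172.2 and 110.3 (−0.64). The highest were *Il7r* at 1435 and 1756 (0.29) and *Icos* at 411.0 and 482.9 (0.23). In IEC, 1 of 16 passed the limit: *Ctla4*, the inhibitory receptor for CD86, was at least 2.15-fold lower in NK318.1.

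Of 20 transcription factors used by dendritic cells other than the members, 0 passed 2-fold in PP on the representative probe set. On it, 16 lay below 0, and the median was −0.13. Other probe sets of *Id2* gave −0.50 and −1.01 in PP, the latter past 2-fold at 78.8 in GF and 39.2 in NK318.1. The lowest were *Id2* at 908.2 and 616.1 (−0.56) and *Nfil3* at 59.9 and 41.9 (−0.51), both needed in the branch that *Batf3* also serves, and the highest were *Bcl6* at 525.3 and 720.9 (0.46) and *Klf4* at 76.0 and 84.0 (0.14). *Irf8*, the partner factor of BATF3, read 1291 and 1088 (−0.25). In IEC *Spib* was 4.09-fold higher in NK318.1, at 31.2 in GF and 127.5, and the lymphoid factors *Ikzf1* and *Ikzf3* were at least 2.57-fold and 3.06-fold lower. Their other probe sets, dim in IEC, had ratios above 0, at 0.33 for *Ikzf1* and at 0.22 and at least 0.26 for *Ikzf3*.

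Markers of dendritic cell subsets, with the members left out, had few ratios past 2-fold in PP. For type 1 conventional dendritic cells, 1 of 14 measured genes was at least 2-fold lower and 13 lay below 0, with a median of −0.29. That gene was *Gcsam* at 169.0 and 79.4 (−1.09), also a gene of germinal centre B cells, and its other probe set gave −0.71. For type 2 cells 0 of 11 passed the limit, 5 lay below 0 and the median was 0.00. They ran from *Cd300a* at 78.7 and 42.3 (−0.90) and *Cd209a* at 20.1 and 16.2 (−0.31) to *Cd4* at 93.1 and 107.5 (0.21) and *Clec4a2* at 20.3 and 26.2 (0.37). For plasmacytoid cells 12 of 14 lay below 0, with a median of −0.18, and 1 gene was at least 2-fold lower. It was *Irf7* at 252.7 and 83.4 (−1.60), a gene that interferon induces in many cell types, while the more specific *Siglech* read 79.1 and 66.5 (−0.25). *Tlr7* gave −0.70 on its representative probe set, and its other probe sets passed 2-fold at −1.04 and −1.05. For mature and migratory cells 0 of 16 passed, 14 lay below 0 and the median was −0.31. They ran from *Aldh1a2*, which makes retinoic acid, at 122.2 and 74.1 (−0.72) and *Cd83* at 2585 and 1659 (−0.64) to *Traf1* at 287.9 and 351.1 (0.29) and *Ccl17* at 52.6 and 65.8 (0.32).

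In IEC the subset lists held *Itgae* (log2 ratio −2.15), *Cd8a* (−2.15) and *Plpp1* (−1.02) among 13 type 1 markers, *Ccr9* (at least 3.80-fold lower) and *Lag3* (31.0 in GF and 14.0, under the floor, in NK318.1) among 14 plasmacytoid markers, and *Cd83* (−1.08) and *Traf1* (−1.04) among 12 markers of mature cells. *Itgae*, *Cd8a*, *Ccr9* and *Lag3* are also genes of T cells. T cell and cytotoxic lymphocyte markers were at least 2-fold lower in NK318.1 IEC for 8 of 18 measured genes, and their summed intensity was 6146 in GF IEC and 1024 in NK318.1 IEC. These were *Cd3d*, *Cd3g*, *Cd8a*, *Gzma*, *Gzmb*, *Nkg7*, *Klrd1* and *Ccl5*, with *Gzmb* the lowest at 689.4 and 28.0 (−4.62). Stroma and endothelium markers were at least 2-fold higher for 7 of 16, namely *Col1a2*, *Dcn*, *Lum*, *Pdgfra*, *Acta2*, *Myh11* and *Tagln*, with *Dcn* the highest at 213.9 and 822.8 (1.94). Of 16 macrophage markers, *Lyz2* was 4.25-fold lower (1265 in GF and 297.9 in NK318.1), and of 27 interferon-stimulated genes *Rsad2* (−1.47) and *Cmpk2* (−1.67) were lower. *Lyz1*, of the same list, was lower too, with log2 ratios of −0.72 on its representative probe set and −1.08 and −1.10 on the others. It was far brighter in IEC than *Lyz2*, and brighter in GF IEC (13549) than in GF PP (6682). Its ratio is therefore not read as one of macrophages. These marker levels differed beside the members' ratios in IEC, *Batf3* included, and their part in those ratios was not tested.

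**Figure D5:**
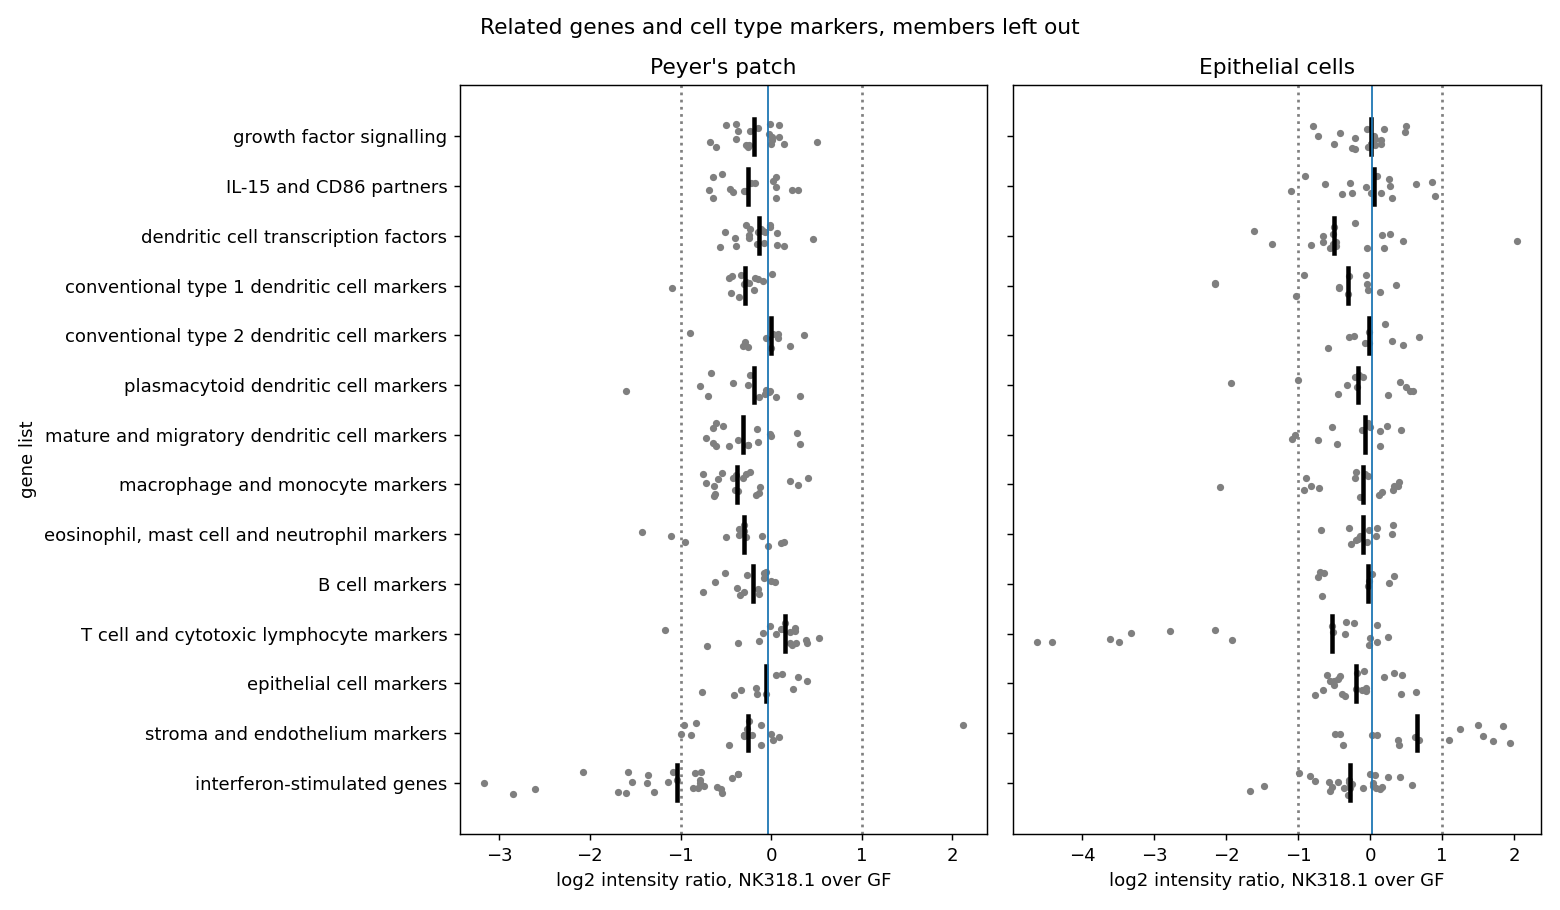
Log2 intensity ratio of NK318.1 over GF in PP (left) and IEC (right) for each measured gene of 14 lists of related genes and cell type markers, members left out, with a black bar at each list's median, a blue line at the median of all genes and dotted lines at 2-fold. In PP the interferon-stimulated genes have the lowest median (−1.04), and in IEC the T cell and cytotoxic lymphocyte list reaches the lowest single ratios.

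Markers of other cells that the Peyer's patch holds had few ratios past 2-fold, apart from 1 list. Macrophage and monocyte markers, whose cells also carry the GM-CSF receptor and CD11c, had 0 of 20 genes past 2-fold, 17 below 0 and a median of −0.38. They ran from *Cd14* (−0.75) and *C1qa* (−0.72) to *Fcgr1* (0.29) and *Marco* (0.40). Their summed intensities were 15210 in GF and 13192 in NK318.1 PP. These sums rest largely on *Lyz1* (6682 and 6079) and *Lyz2* (3017 and 2496), and *Lyz1* was brighter still in GF IEC, at 13549. B cell markers had 0 of 14 past the limit, 13 below 0, a median of −0.20 and sums of 23502 and 21451. They ran from *Pax5* (−0.75) and *Blk* (−0.62) to *Cd22* (0.00) and *Ms4a1* (0.05). The other *Pax5* probe set read 72.5 in GF and 85.8 in NK318.1 PP (0.24), so the direction of *Pax5* is not settled. T cell and cytotoxic markers had 1 of 19 lower (*Gzma*, −1.17), 6 below 0, a median of 0.15 and sums of 11960 and 12762. Of 13 measured genes of eosinophils, mast cells and neutrophils, which respond to GM-CSF, IL-3 or IL-5, 11 lay below 0. At least 2-fold lower were 2, *Prg2* at 50.8 and 23.6 (−1.11) and *Mcpt1*, at least 2.68-fold lower. Epithelial markers had 0 of 11 past the limit and 6 below 0, from *Cdh17* (−0.76) and *Epcam* (−0.41) to *Fabp1* (0.30) and *Apoa1* (at least 0.39). Stroma and endothelium markers had 1 of 18 higher, *Glycam1* (2.12), but 15 of 18 below 0 and a median of −0.26. Their lowest were *Col1a2* (140.4 in GF and 70.3 in NK318.1) and *Lyve1* (log2 ratio −0.96). Interferon-stimulated genes stood apart, with 14 of 27 at least 2-fold lower, 27 of 27 below 0, a median of −1.04 and summed intensities of 6668 and 3171. These 14 were *Ifit1*, *Ifit2*, *Ifit3*, *Rsad2*, *Cmpk2*, *Xaf1*, *Irf7*, *Usp18*, *Ifi27l2a*, *Mx1*, *Oasl1*, *Oasl2*, *Cxcl10* and *Ifih1*, which act against viruses or are used as readouts of interferon, and *Ifit3* was the lowest at 299.0 and 33.2 (−3.17). *Il15* is itself known as a gene that interferon can induce. The part of this list, and of each cell type list, in the members' PP ratios was not tested.

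The genes whose pattern over the 4 arrays was most like the mean of the members were found by the distance between log2 intensities, floored and centred on each gene's own mean, among 14341 genes. The nearest 5 were *Hpgds* (distance 0.039 on the log2 scale), *Noxred1* (0.040), *Cd93* (0.045), *Slamf8* (0.049) and *Gm32633* (0.059). *Hpgds*, the haematopoietic prostaglandin D synthase, read 56.5 in GF PP, 35.9 in NK318.1 PP, and 10.6 and 12.3 in IEC. All 5 had PP log2 ratios between −0.67 and −0.54 and lay under the floor on both IEC arrays. Of the members, *Itgax* (0.41) and *Flt3* (0.48) were closest to the mean, and *Il15* (2.68) and *Csf2rb* (3.30) farthest. This distance depends on the size of a difference as well as on its direction. *Csf2rb* was brighter in PP than in IEC, as the mean of the members was, but by more. *Il15* was brighter in IEC.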

How the data were processed

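RNA (6 µg of Trizol extract per the study's methods) was hybridized to 4 Affymetrix 3′ arrays, 1 per tissue and colonization group. The deposited intensities are linear MAS5 values from the authors, 1 per probe set. Neither the MAS5 version nor its settings were given in the sources used. They were used without further scaling. Of 45037 probe sets beside 64 controls, 34945 name 1 gene in the platform annotation, 932 several and 9160 none. The probe set whose log2 intensity averaged highest across the arrays represented its gene. The 40th percentile of each array was taken, and the median of these values was the floor, and a gene was measured where either array lay above it. The 2-fold limit is that of the study's methods, whose limma test needs replicates and could not be fitted to 1 array per group, so no p-value is given. The depth of an array has no read count, and the number of arrays limits the precision.

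The members, the 14 gene lists, the limits and the alternatives were chosen with earlier results of these data known. Named beside the members were list genes at least 2-fold apart in a tissue and, in lists with few of these, the 2 highest and 2 lowest ratios. *Il15ra*, *Irf8*, *Siglech*, *Ptprc* and *Epcam* were named for their role, *Tlr7* for its other probe sets and *Lyz1* for its high intensity. The alternatives were median centring, quantile normalization, other floors, the mean over probe sets, leaving out less specific probe sets, and limits of 1.5-fold and 4-fold. The procedure was tested on simulated data, with planted differences larger than the 2-fold limit in probe sets well above the floor. That test does not bear on ratios near 2-fold or on dim probe sets. Python 3.11.15, numpy 2.4.6, pandas 2.3.3 and matplotlib 3.10.9 were used.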

Additional observations from a re-analysis of the deposited data

Results flagged for a closer look

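In 3 members the 2 tissues had colonization ratios of opposite sign. *Batf3* had log2 ratios of −0.74 in PP and 0.89 in IEC, which lie 1.63 apart, with GF IEC near the floor at 19.1. *Csf2rb* had −1.10 in PP and at least 0.09 in IEC, which lie 1.19 apart, with GF IEC under the floor. *Zbtb46* had −0.29 and 0.03, which lie 0.32 apart, with intensities near the floor on all 4 arrays. The members were chosen by the PP ratio, and with 1 array per group these differences were not tested.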

How the results depend on the processing

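Of 68 recomputed counts and medians of the members, 63 stayed within 1.5 times the reported count or within 0.1 on the log2 scale. The 5 others were the members at least 2-fold lower in PP, which were 0 at a limit of 4-fold, the members' PP median, −0.53 with the mean over probe sets, the members higher in IEC, 1 at a limit of 1.5-fold (*Batf3*), the IEC median, −0.10 under a 60th-percentile floor, and the members brighter in NK318.1 PP than in IEC, 2 at 4-fold. The count of 4 members lower in PP became 3 in 3 settings, without *Il15* under quantile normalization (−0.91) or the 60th-percentile floor of 37.3 (−0.38), and without *Csf2ra* with the mean over probe sets (−0.40). Of 112 recomputed ratios of single members, 97 moved by less than 0.1 and 0 changed sign. Ratios lost under the 60th-percentile floor are not among the 112. These were *Zbtb46* and *Xcr1* in PP, and *Csf2rb*, *Itgax*, *Batf3*, *Zbtb46* and *Cd86* in IEC. The IEC median under that floor therefore rests on *Flt3*, *Csf2ra* and *Il15* alone. The members' IEC median, close to 0, was below 0 in 5 settings, at −0.01 to −0.10. The IEC bounds of *Csf2rb* and *Cd86* became 0.67 and 0.64 without a floor. No paired analysis was possible because replicate arrays of a group do not exist here. Values near the floor, as for *Zbtb46*, *Xcr1*, *Batf3* in GF IEC and the second *Csf2ra* probe set, limit what these arrays show.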
